A study of Mus musculus with 11 samples.

Results

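The mRNAs of 10 genes of calcium handling by the sarcoplasmic reticulum (SR), the internal calcium store of the muscle fibre, were followed in dystrophic muscle and after exon skipping. The genes are the calcium pumps *Atp2a1* and *Atp2a2*, the pump inhibitors *Sln* and *Pln*, the release channel *Ryr1*, the junctophilins *Jph1* and *Jph2*, the calsequestrins *Casq1* and *Casq2* and the store sensor *Stim1*. They were chosen by gene symbol and are 10 of the 21759 gene symbols in the deposited table, with 12 of its 28350 probe sets. *Jph1* and *Jph2* have a second probe set each, and a gene was read at its probe set with the highest mean signal. All 10 genes were found.

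RNA came from the tibialis anterior (TA), a fast-twitch muscle of the lower leg, of 11 male mice aged 14 weeks, with an Affymetrix Mouse Gene ST array for each mouse. The 3 groups were C57 wild-type mice (*n* = 3), untreated *mdx* mice (*n* = 4) and *mdx* mice injected with Pip6e-PMO (*n* = 4). *mdx* mice carry a nonsense mutation in *Dmd*, the dystrophin gene, and are a widely used model of Duchenne muscular dystrophy. Pip6e-PMO is a morpholino oligonucleotide joined to a cell-penetrating peptide, and it makes the fibre skip the mutated exon so that a shortened dystrophin is made. At 12 weeks of age these mice received a single tail vein dose of 12.5 mg/kg, and the treated mice carry the same *mdx* allele as the untreated ones. No group received a control oligonucleotide. By RT-qPCR and LC-MS/MS, the paper found the least exon skipping and dystrophin in a treated sample it names T2. Its western blot values were not significantly correlated with either measure. In its clustering of changed mRNAs on the arrays, the paper also found T2 the least restored treated sample. It placed T2 nearer to the *mdx* samples than the other treated samples were. Treated mouse 2 here bears the same number, so the treated mice may not have responded equally. Sections of whole muscle hold fibres together with immune, connective tissue, vessel and nerve cells, so that fewer cells of a type and less RNA per cell cannot be told apart.

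When a fibre is excited, a voltage sensor in the T-tubule opens the ryanodine receptor of the SR, calcium bound to calsequestrin is released, and the fibre contracts. SERCA pumps then return the calcium to the SR, under the restraint of the small membrane peptides sarcolipin and phospholamban. Junctophilins hold the T-tubule and SR membranes together at the triad, and STIM1 opens calcium channels of the surface membrane when the store runs low. Disturbed calcium handling is a long-recognized feature of fibres that lack dystrophin.

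The array medians lay between 27.5 and 28.6 in linear intensity. The test covered the 14494 probe sets whose mean linear intensity reached 30 in any group, and this left out *Sln*. The *Dmd* probe set itself read 5.82 ± 0.05 log2 in C57 (SD, *n* = 3), 5.28 ± 0.50 in untreated *mdx* (SD, *n* = 4) and 5.80 ± 0.37 after treatment (SD, *n* = 4). All 8 skeletal muscle markers were measured in every mouse and none was called in any of the 3 comparisons (0 of 8 also at an unadjusted p under 0.05, limma). Of these markers, *Acta1* and *Ckm* averaged 13.25 and 13.23 log2 in C57, where the highest intensity on an array was 13.63 to 13.91. The mutation leaves the *Dmd* gene in place, so the *Dmd* level does not check the labels.

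Of the 9 members that were bright enough to test, *Atp2a2* rose in *mdx* muscle and was also higher than C57 in treated mice, while the other 8 did not pass the threshold in any comparison. *Sln*, which was too dim for the main test, was higher in both dystrophic groups when the minimum intensity was dropped. A gene was called when its p from limma, adjusted by Benjamini-Hochberg over all probe sets tested, was under 0.05. In *mdx* against C57, 1 of 9 tested members was called, where 12.0% of all probe sets were called (7.06% higher and 4.96% lower). In treated against *mdx* mice 0 of 9 were called, where 11.1% of all probe sets were called (7.26% higher and 3.88% lower). At an unadjusted p under 0.05 in limma there were 2 of the 9 members and 4565 of the 14494 probe sets. In treated against C57 mice 1 of 9 was called, where 24.6% of all were (15.6% higher and 8.96% lower). The median log2 difference over the 9 tested members was -0.22 in *mdx* against C57, 0.03 in treated against *mdx* and -0.01 in treated against C57, and over all probe sets tested it was -0.01, 0.02 and 0.00. The comparisons share their groups and are not independent of one another.

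Read mouse by mouse over all 10 members, the *mdx* and C57 mice did not overlap in 3: *Atp2a2* and *Sln* were higher in every *mdx* mouse and *Ryr1* was lower. Such separation was seen in 24.3% of all probe sets tested, which leave out *Sln*, and in 2 of the 9 tested members. Treated and untreated *mdx* mice did not overlap in *Ryr1* and *Sln*, in each case by 0.01 log2, which is the smallest step of the deposited values, and 16.0% of all probe sets tested separated. Treated and C57 mice did not overlap in *Atp2a2* and *Sln*, and 32.0% of all probe sets tested separated. Among the 9 tested members, 1 separated in treated against *mdx* mice and 1 in treated against C57 mice.

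**Figure D1:**
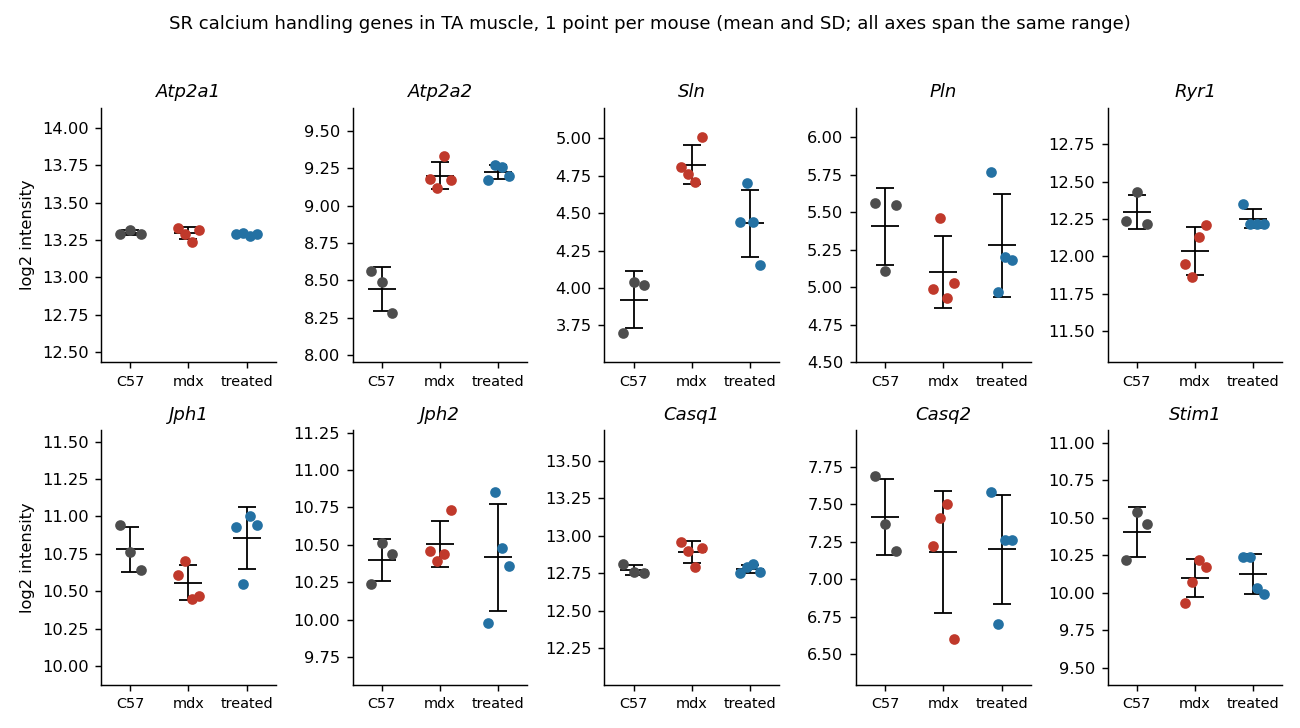
Log2 intensity of the 10 SR calcium genes in the TA, with a point for each mouse (3 C57, 4 *mdx*, 4 treated), a bar for the mean and whiskers for the SD. The vertical axes differ in position but span the same range. *Atp2a2* sits at 8.28 to 8.56 in C57 and at 9.12 or more in every *mdx* and treated mouse, and the points of *Atp2a1* lie almost on a line.

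*Atp2a2* encodes SERCA2, whose splice forms are the pump of slow-twitch and cardiac muscle and the general pump of most other cells; the table holds 1 probe set for the gene (10533483, 40 probes, chromosome 5, 122892711 to 122952183, minus strand, with no genome build named). Its log2 intensity was 8.56, 8.49 and 8.28 in the C57 mice, 9.18, 9.12, 9.33 and 9.17 in the *mdx* mice, and 9.17, 9.27, 9.26 and 9.20 in the treated mice. Every dystrophic mouse, treated or not, lay above every C57 mouse, and the treated and untreated mice were interleaved. *Atp2a2* rose by 0.76 log2 in *mdx* (SE 0.10, 1.69-fold, 95% interval 1.46 to 1.95, adjusted *p* = 4.08e-04 in limma). It was 0.78 above C57 in treated mice (SE 0.10, 1.72-fold, adjusted *p* = 2.94e-04 in limma). The difference between treated and untreated *mdx* mice was 0.03 (SE 0.09, 95% interval -0.17 to 0.22, adjusted *p* = 0.874 in limma), so that a change of more than 1.16-fold in either direction lies outside the interval. Leaving out any 1 mouse left the rise in *mdx* between 0.68 and 0.82 with an adjusted p of at most 0.0027, and it was called under all 22 alternatives.

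Restoration, the part of the *mdx* difference that treatment removed, was -3.30% for the *Atp2a2* means. It was 3.96%, -9.25%, -7.93% and 0% in the 4 treated mice (SD 6.34). The same *mdx* mice enter both parts of this ratio, so it is given without a test. No treated mouse lay nearer to the C57 mean than to the *mdx* mean.

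*Atp2a1* encodes SERCA1, the pump of fast-twitch fibres (probe set 10567879, 46 probes, chromosome 7, 133589374 to 133606618, minus strand). Its log2 intensity was 13.29, 13.32 and 13.29 in C57, 13.33, 13.29, 13.24 and 13.32 in *mdx*, and 13.29, 13.30, 13.28 and 13.29 in treated mice. All 11 mice fell within 0.09 log2 of one another. The *mdx* minus C57 difference was -0.01 (95% interval -0.17 to 0.16) and the treated minus *mdx* difference was -0.01 (95% interval -0.16 to 0.15). The highest intensity on an array was 13.63 to 13.91 log2, so this probe set works near the top of the range.

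The log2 ratio of *Atp2a2* to *Atp2a1* within an array is given as a description of these probe sets. Because the *Atp2a1* signal was flat and near the top of the range, the ratio restates the *Atp2a2* difference and does not show by itself that the mRNAs changed unequally; its absolute height compares different probes and is not read. C57 mice gave -4.86 ± 0.14 (SD, *n* = 3), *mdx* mice -4.10 ± 0.12 (SD, *n* = 4) and treated mice -4.07 ± 0.05 (SD, *n* = 4). The mean was 0.76 higher in *mdx* (exact permutation *p* = 0.0571, two-sided, 0.171 after adjustment over 12 tests) and 0.79 in treated mice (exact permutation *p* = 0.0571). With 3 mice against 4 the exact test cannot go below 0.0571. All 8 dystrophic mice had a higher ratio than all C57 mice, and the treated minus *mdx* difference was 0.03 (exact permutation *p* = 0.743).

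**Figure D2:**
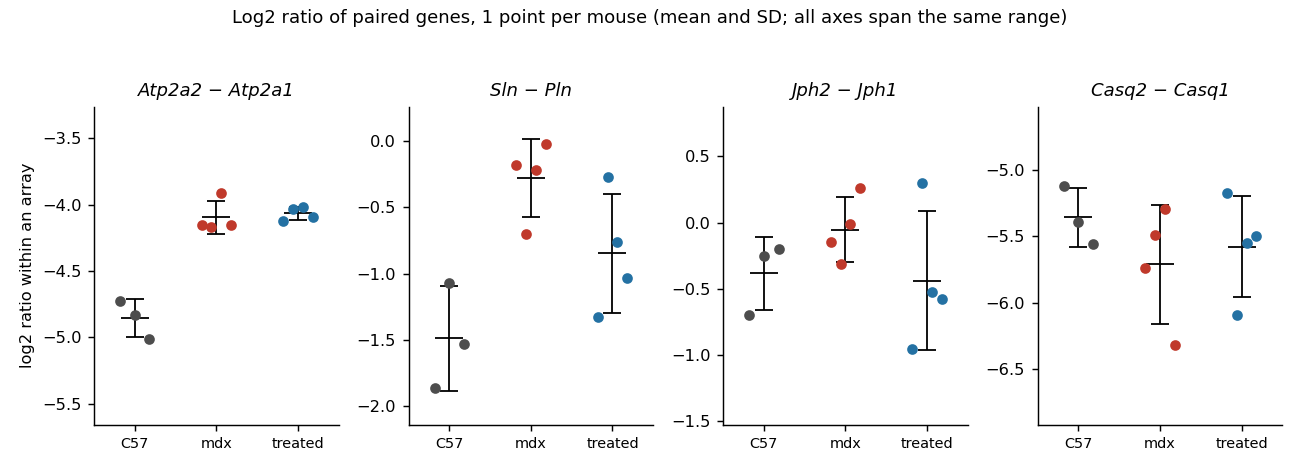
Log2 ratio within an array of 4 pairs of related genes, with a point for each mouse, the mean and the SD; all axes span the same range, and only differences between groups can be read. The pump ratio is -5.01 to -4.73 in C57 and -4.17 or higher in all *mdx* and treated mice, and the *Sln* to *Pln* panel rests on a *Sln* signal under the minimum intensity in every group mean.

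Markers of other fibres and cells moved in the same comparison, and their part in the *Atp2a2* difference was not tested. Of 7 slow fibre markers tested, *Tnni1* rose in *mdx* by 2.47 log2 and *Myl3*, the slow fibre and cardiac essential light chain, fell by 1.67; *Myh7*, the slow myosin heavy chain, was under the minimum intensity in all 3 groups. *Tpm3* was called at 0.40 from its brightest probe set, which the deposited annotation puts on chromosome 14 with cross-hybridization type 3 (probes that match other sequences too); its probe set of type 1, on chromosome 3, differed by -0.11 and was not called (adjusted *p* = 0.717 in limma). The summed linear intensity of all 8 slow fibre markers ranged from 1456 to 1837 over the C57 mice, 1405 to 2629 over the *mdx* mice and 1323 to 1941 over the treated mice, so that the groups overlapped. In this sum opposite changes offset each other. From C57 to *mdx* the mean linear intensity of *Myl3* went from 805 to 250 and that of *Tnni1* from 114 to 711. It also includes the cross-hybridizing *Tpm3* probe set, so the overlap does not show an unchanged slow fibre signal. In treated against *mdx* mice 4 of the 7 slow fibre markers were called, *Myl3* and *Myoz2* higher and *Myl2* and *Tnnt1* lower. The mean linear intensity of *Myl2* was 31.1 in *mdx* and 18.5 in treated mice, the latter under the minimum. None of the 8 fast fibre markers was called in *mdx* (0 of 8 at an unadjusted p under 0.05, limma). Their probe sets were bright, with C57 means from 11.69 log2 for *Myh1* to 12.76 for *Tnnc2*. The absence of calls does not show an unchanged fast fibre content.

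Of 8 regenerating fibre markers, 7 rose in *mdx*, with a summed intensity of 1569 to 2017 over the C57 mice, 4317 to 6554 over the *mdx* mice and 2314 to 4668 over the treated mice. Of 9 macrophage markers tested, 8 rose in *mdx*, with sums of 1742 to 2180, 4465 to 6725 and 2985 to 4611 in the same order. Of 8 fibroblast and matrix markers, 4 rose in *mdx* and 6 were higher in treated than in C57 mice, with sums of 5575 to 7457, 9139 to 10704 and 7713 to 13020. For all 3 of these lists the sum was higher in every dystrophic mouse than in every C57 mouse. A sum weighs its brightest genes most. *Myl4* had a mean linear intensity of 1105 in C57, 3603 in *mdx* and 2021 in treated mice. *Lyz2* had 512, 1627 and 1268 in the same order. *Myh3*, *Chrng* and *Itgam* had C57 means of 19.3, 18.1 and 28.4, under the minimum. They entered the test through the dystrophic groups alone. Treated mouse 2 had the highest sum of the treated mice in each list; the other treated mice had sums of 2314 to 2751 for regenerating fibre and 2985 to 3294 for macrophage markers, below every *mdx* mouse. In treated against *mdx* mice all 8 regenerating fibre markers had a difference below 0, with 1 called, 4 of 9 macrophage markers were called (3 lower and 1 higher), and 0 of 8 fibroblast and matrix markers were called (2 at an unadjusted p under 0.05, limma). Of the cardiac markers, 2 of 6 reached the minimum intensity and none was called in *mdx* (0 of 2, adjusted *p* at least 0.0677 in limma); *Myl7* and *Ryr2*, both typical of heart muscle, had log2 intensities of at most 3.70 in every mouse. None of the 6 smooth muscle and vessel, 4 adipocyte or 4 blood markers was called in *mdx* (3, 0 and 0 at an unadjusted p under 0.05, limma), and 3 of 5 peripheral nerve markers fell. In treated against *mdx* mice 3 of 4 adipocyte markers tested fell and 1 of 6 smooth muscle and vessel markers rose. Of the cardiac markers tested, 1 of 2 was called lower in treated than in *mdx* mice, and 2 of 2 were called lower in treated than in C57 mice. In treated mice these markers, *Myh6* and *Tnni3*, had mean linear intensities of 22.0 and 26.0, under the minimum.

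The pump inhibitors were dim on these arrays. *Sln* encodes sarcolipin, which binds SERCA and lowers the calcium moved for each ATP spent (probe set 10585390, 25 probes, chromosome 9, 53697971 to 53702369, plus strand). Its log2 intensity was 3.70, 4.04 and 4.02 in C57, 4.81, 4.76, 4.71 and 5.01 in *mdx*, and 4.44, 4.70, 4.44 and 4.15 in treated mice. The 3 groups did not overlap: every *mdx* mouse lay above every treated mouse, and every treated mouse above every C57 mouse. All values but 1 were below 4.91, the log2 of the minimum intensity, and *Sln* was therefore outside the main test.

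In the same fit without a minimum intensity, *Sln* was 0.90 higher in *mdx* than in C57 (SE 0.13, adjusted *p* = 0.00214 in limma) and 0.51 higher in treated than in C57 mice (SE 0.13, adjusted *p* = 0.0269 in limma). The treated minus *mdx* difference of -0.39 did not pass (95% interval -0.66 to -0.12, adjusted *p* = 0.0847 in limma). Without the minimum, 6.13% of 28350 probe sets were called in *mdx* against C57 and 12.8% in treated against C57 mice. At intensities this low the size of a fold change is not well fixed.

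*Pln* encodes phospholamban, the SERCA inhibitor of slow-twitch and cardiac muscle (probe set 10363157, chromosome 10). Its log2 intensity was 5.56, 5.11 and 5.55 in C57, 4.99, 5.46, 4.93 and 5.03 in *mdx*, and 5.77, 4.97, 5.20 and 5.18 in treated mice. The groups overlapped throughout, and 1 mouse in each dystrophic group stood near the higher C57 values. The differences were -0.30 in *mdx* (95% interval -0.72 to 0.12), 0.18 in treated against *mdx* mice and -0.13 in treated against C57 mice, none of them called.

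The *Sln* to *Pln* log2 ratio averaged -1.49 ± 0.40 over the C57 mice (SD, *n* = 3), -0.28 ± 0.29 over the *mdx* mice (SD, *n* = 4) and -0.85 ± 0.45 over the treated mice (SD, *n* = 4). These are descriptions only, since *Sln* lay under the minimum intensity in every group mean and is not shown to be above background in C57.

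*Ryr1* encodes the ryanodine receptor through which the SR of skeletal muscle releases calcium (probe set 10561561, 102 probes, chromosome 7, 29788363 to 29910170, minus strand). Its log2 intensity was 12.24, 12.43 and 12.22 in C57, 11.95, 11.86, 12.13 and 12.21 in *mdx*, and 12.35, 12.22, 12.22 and 12.22 in treated mice. The *mdx* mice were the lowest 4 of the 11, the highest of them 0.01 below the lowest of the others. The difference was -0.26 in *mdx* (SE 0.11, 95% interval -0.49 to -0.03), with an unadjusted p of 0.030 that became 0.145 after adjustment in limma. It was 0.22 in treated against *mdx* mice (SE 0.10, 95% interval 0.00 to 0.43, adjusted *p* = 0.154 in limma) and -0.04 in treated against C57 mice. When arrays were weighted by their quality, the *mdx* difference of -0.33 was called (adjusted *p* = 0.0207 in limma), in a fit that called 23.3% of all probe sets.

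Junctophilins anchor the SR to the T-tubule; *Jph1* is the skeletal muscle form and *Jph2* is found in skeletal and cardiac muscle. *Jph1* (probe set 10353309, chromosome 1) measured 10.94, 10.76 and 10.64 log2 in C57, 10.61, 10.70, 10.45 and 10.47 in *mdx*, and 10.93, 10.55, 11 and 10.94 in treated mice. Treated mice 1, 3 and 4 lay above all *mdx* mice, whereas treated mouse 2 lay among them. The difference was 0.30 in treated against *mdx* mice (SE 0.12, 95% interval 0.04 to 0.55, adjusted *p* = 0.109 in limma).

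Without treated mouse 2 the *Jph1* difference became 0.40 and was called (adjusted *p* = 0.0142 in limma), in a fit that called 28.4% of all probe sets in treated against *mdx* mice. Array weights also called it, at 0.40 (adjusted *p* = 0.0057 in limma), with 31.8% of all probe sets. The second *Jph1* probe set, 10353311, gave 0.13 for the same comparison (adjusted *p* = 0.394 in limma). In *mdx* against C57 the 2 probe sets gave -0.22 and -0.24, neither of them called.

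*Jph2* (probe set 10489355, chromosome 2) measured 10.24, 10.51 and 10.44 log2 in C57, 10.46, 10.39, 10.44 and 10.73 in *mdx*, and 9.98, 10.85, 10.48 and 10.36 in treated mice. The treated mice gave both the lowest and the highest value of all 11, with an SD of 0.36 against 0.14 in C57 and 0.15 in *mdx*. Differences were 0.11, -0.09 and 0.02 in the 3 comparisons, and the second probe set, 10489357, gave 0.04, -0.04 and 0.00. The *Jph2* to *Jph1* ratio differed by 0.33 in *mdx* against C57 (exact permutation *p* = 0.229) and by -0.39 in treated against *mdx* mice (exact permutation *p* = 0.257).

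The calsequestrins bind calcium inside the SR, *Casq1* chiefly in fast-twitch fibres and *Casq2* in slow-twitch fibres and heart. *Casq1* (probe set 10360235, chromosome 1) measured 12.81, 12.76 and 12.75 log2 in C57, 12.96, 12.90, 12.79 and 12.92 in *mdx*, and 12.75, 12.79, 12.81 and 12.76 in treated mice. Of the *mdx* mice, 3 of 4 were above all others, but the differences of 0.12 in *mdx* (95% interval -0.06 to 0.29, adjusted *p* = 0.403 in limma) and -0.12 in treated against *mdx* mice (adjusted *p* = 0.311 in limma) were not called. The treated minus C57 difference was 0.00 (95% interval -0.17 to 0.18).

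*Casq2* (probe set 10494804, chromosome 3) measured 7.69, 7.37 and 7.19 log2 in C57, 7.22, 7.41, 7.50 and 6.60 in *mdx*, and 7.58, 6.70, 7.26 and 7.26 in treated mice. A single mouse in each dystrophic group, *mdx* mouse 4 and treated mouse 2, was well below the rest. The differences of -0.23 in *mdx* and -0.22 in treated against C57 mice had intervals of -0.74 to 0.28 and -0.73 to 0.29, the widest of the 9 tested members. The *Casq2* to *Casq1* ratio differed by -0.35 in *mdx* (exact permutation *p* = 0.286).

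*Stim1* encodes the SR calcium sensor that opens ORAI channels when the store empties (probe set 10555681, chromosome 7, 109416320 to 109585381, plus strand). Its log2 intensity was 10.22, 10.54 and 10.46 in C57, 9.93, 10.07, 10.22 and 10.17 in *mdx*, and 10.24, 10.24, 10.03 and 9.99 in treated mice. C57 mice 2 and 3 were above all dystrophic mice, and C57 mouse 1 lay at their upper edge. The difference was -0.31 in *mdx* (SE 0.11, 95% interval -0.56 to -0.06, adjusted *p* = 0.109 in limma) and -0.28 in treated against C57 mice (SE 0.11, 95% interval -0.53 to -0.03, adjusted *p* = 0.0889 in limma). The treated minus *mdx* difference was 0.03 (95% interval -0.20 to 0.26). Array weights called *Stim1* in both dystrophic groups against C57, at -0.36 (adjusted *p* = 0.0194 in limma) and -0.42 (adjusted *p* = 0.00333 in limma), in fits that called 23.3% and 45.2% of all probe sets.

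**Figure D3:**
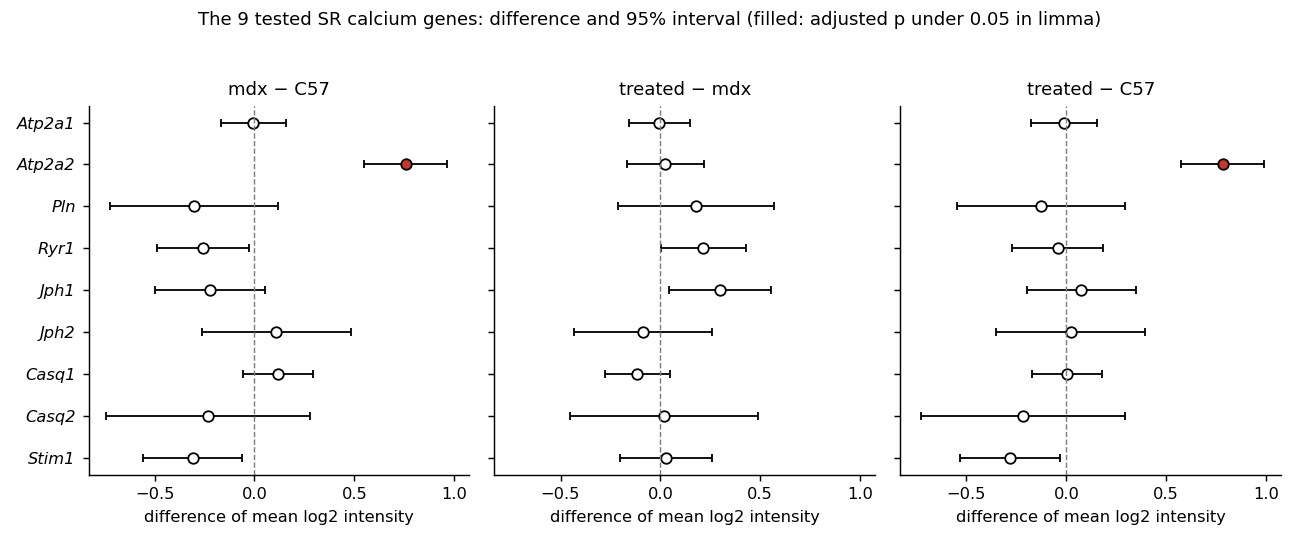
Difference of mean log2 intensity for the 9 tested members in each of the 3 comparisons, with 95% intervals from limma; filled points have an adjusted p under 0.05. *Atp2a2* is the filled point in both comparisons with C57, at 0.76 and 0.78, and no member is filled in treated − *mdx*.

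A wider list of 69 genes of calcium handling was read in the same fit, of which 65 were measured and 58 tested; 7 were under the minimum intensity, among them the other ryanodine receptors *Ryr2* and *Ryr3*. In *mdx* against C57, 4 of 58 were called, 3 higher and 1 lower, against 12.0% of all probe sets. *Orai2*, a pore subunit of the store-operated channels that STIM1 opens, rose by 1.33 (SE 0.16, adjusted *p* = 2.76e-04 in limma), from 5.44 to 5.65 log2 in C57 to 6.65 to 7.21 in *mdx*. The probe set read, 10436426, lies on chromosome 16 in the deposited annotation and the other, 10534570, on chromosome 5; both are of cross-hybridization type 3, so other sequences may contribute, and the other gave 1.35 (adjusted *p* = 5.78e-04 in limma). *Mcub*, a subunit that restrains the mitochondrial calcium uniporter, rose by 0.80 (adjusted *p* = 0.00174 in limma) from a C57 mean linear intensity of 29.5, so that it entered the test through the dystrophic groups alone. *Micu2*, a gatekeeper of the uniporter, rose by 0.51 (adjusted *p* = 0.0329 in limma). *Itpr3*, an IP3 receptor that releases calcium from internal stores, fell by 0.44 (adjusted *p* = 0.0105 in limma).

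*Orai2* and *Mcub* were called with each of the 11 mice left out in turn, in fits that keep the minimum intensity. With the methods' t-test *Mcub* was not called (adjusted *p* = 0.0539), nor were *Itpr3* (adjusted *p* = 0.0571) and *Micu2* (adjusted *p* = 0.111). *Itpr3* was lost without C57 mouse 2 (adjusted *p* = 0.0601 in limma), and *Micu2* was called in 6 of the 11 such fits. When C57 mouse 2 was left out, 2 of the 58 genes were called, where 6.94% of all probe sets were.

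Beside the marker changes given above, whose part was not tested, 3 of 58 genes in treated against *mdx* mice were called, against 11.1% of all probe sets. All 3 were higher in treated mice. At an unadjusted p under 0.05 in limma there were 16 of the 58 genes and 4565 of the 14494 probe sets. *Ppp3ca*, the catalytic A subunit of calcineurin, rose by 0.55 (adjusted *p* = 0.0229 in limma), *Micu2* by 0.47 (adjusted *p* = 0.0393 in limma) and the calmodulin gene *Calm2* by 0.43 (adjusted *p* = 0.048 in limma). The *Micu2* mean therefore lay further from its C57 level in treated than in *mdx* mice. Its treated minus *mdx* difference was not called with the methods' t-test (adjusted *p* = 0.129) or the replicate block (adjusted *p* = 0.0882 in limma).

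Treated mouse 2, which shares its number with the paper's sample T2, bore on this comparison more than the others did. Why it did so was not tested. Without it 16 of 58 genes were called, and 28.4% of all probe sets. Without *mdx* mouse 3 or 4, or treated mouse 1, 3 or 4, 0 of 58 were called in limma. In the same order, 3.90%, 2.44%, 3.39%, 2.63% and 2.04% of all probe sets were called, so few calls were left anywhere. *Ppp3ca* was called in 6 of the 11 fits that leave out a mouse, *Micu2* in 5 and *Calm2* in 1.

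In treated against C57 mice, 15 of 58 were called, 12 higher and 3 lower, against 24.6% of all probe sets. *Micu2* stood 0.98 higher (SE 0.14, adjusted *p* = 7.53e-04 in limma) and *Orai2* 0.93 higher (SE 0.16, adjusted *p* = 0.00214 in limma). The subunits of calcineurin *Ppp3ca* and *Ppp3r1* were 0.69 and 0.45 higher, and *Camk2d*, a calcium-calmodulin kinase, 0.37 higher. Of the luminal and junctional proteins, *Hrc*, which binds calcium inside the SR, was 0.42 higher and *Asph*, which encodes junctin among other forms, 0.39 higher.

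Of the voltage sensor and its partners, *Cacna2d1* was 0.58 higher, while the beta subunit gene *Cacnb1* and the adaptor gene *Stac3* fell by 0.36 and 0.30. *Itpr3* fell by 0.53. *Mcub*, *Micu3*, *Calm2* and the surface membrane pump gene *Atp2b4* were 0.55, 0.47, 0.42 and 0.38 higher. *Micu3* reached the minimum intensity in treated mice alone (mean linear intensity 34.7, against 25.0 in C57 and 26.6 in *mdx*), and without the minimum it was not called (adjusted *p* = 0.067 in limma). None of the 5 T-tubule and triad formation genes tested was called in any comparison, with 1 at an unadjusted p under 0.05 in treated against *mdx* mice in limma.

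The count against C57 was 7 to 26 with each mouse left out in turn: 26 without treated mouse 2, 9 without treated mouse 4, 9 without C57 mouse 2 and 7 without C57 mouse 3. Of all probe sets, 34.1%, 16.8%, 13.7% and 13.1% were called in these fits, in the same order. *Cacnb1*, *Itpr3*, *Orai2*, *Mcub*, *Micu2* and *Ppp3ca* were called in all 11 such fits. *Hrc* and *Camk2d* were called in 10, *Asph* and *Cacna2d1* in 9, *Atp2b4* in 6, *Micu3* and *Ppp3r1* in 3, *Stac3* in 2 and *Calm2* in 1.

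**Figure D4:**
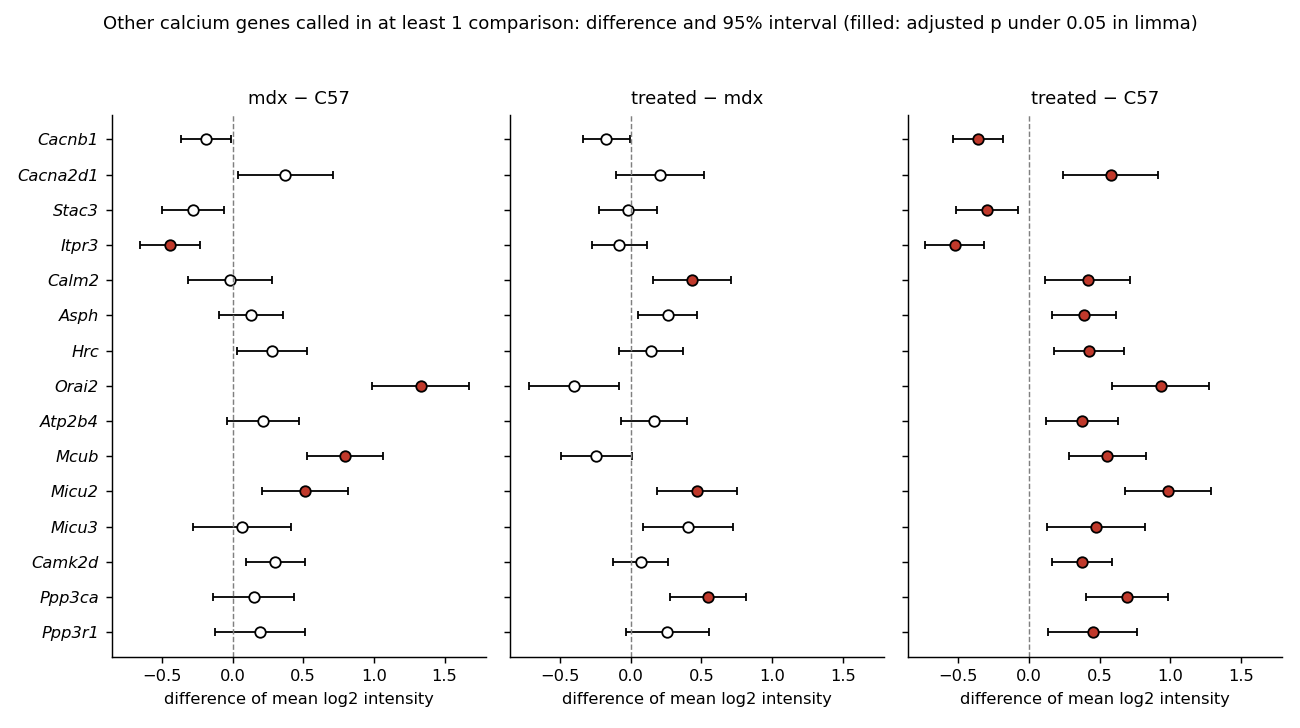
Difference of mean log2 intensity for the 15 other calcium genes called in at least 1 comparison, with 95% intervals from limma; filled points have an adjusted p under 0.05. *Orai2* is the largest difference in *mdx* at 1.33, and *Micu2* is filled in all 3 panels.

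The genes whose pattern over the 11 mice came nearest to those of *Sln* and *Atp2a2* were read from all tested probe sets, each gene with its own C57 mean subtracted. Nearest to *Sln*, the member with the largest *mdx* difference, were *Hcls1*, *Sh2b2*, *Tgfb1*, *Plp2* and *Cpne2*, at a mean absolute distance of 0.09 to 0.12 log2. *Hcls1*, a signalling protein of blood cells, was 0.86 above C57 in *mdx* and 0.57 above it in treated mice. Nearest to *Atp2a2* were *Tgfb2*, *Adcy7*, *Arhgef2*, *Nid1* and *Map4k4*, at 0.09 to 0.10 log2; this second list was added after the values were seen. *Nid1*, a basement membrane protein, was 0.63 above C57 in *mdx* and 0.86 above it in treated mice, and *Tgfb2*, a growth factor, 0.64 and 0.79. All these genes were picked for their likeness to *Sln* or *Atp2a2*. Their differences from C57 therefore follow from the choice and are descriptions only. The *Sln* pattern they were matched to lay under the minimum intensity in every group mean.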

How the data were processed

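Messenger RNA of the TA of 11 mice was measured on Affymetrix Mouse Gene ST 1.1 arrays. The authors made the values in Affymetrix Expression Console by RMA with the sketch-quantile option, per the study's methods. RMA corrects background, brings the arrays to a shared distribution and summarizes the probes of a probe set. The deposited intensities are linear, with no pooling of mice, and their log2 lies on whole hundredths. The deposited positions name no genome build. Array number, 3 or 4 per group, limits the precision.

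Log2 intensities were fitted with limma 3.58.1 in R 4.3.3 (lmFit and eBayes, 3 group means, all 11 mice, two-sided) for probe sets with a mean intensity of at least 30 in at least 1 group, and p-values were adjusted by Benjamini-Hochberg over all 14494. The fit was tested on simulated data. Ratios of paired genes were compared by exact permutation tests in SciPy 1.17.1. Python 3.11.15 was used with pandas 2.3.3, matplotlib 3.10.9 and NumPy 2.4.6.

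All 10 members are named, with every gene of the wider calcium list that was called in any comparison and the 5 genes nearest in pattern to the member with the largest *mdx* difference. Older symbols in the table were matched to current ones by Entrez identifier; *Mcub*, *Micu2* and *Micu3* are listed there as *Ccdc109b*, *Efha1* and *Efha2*. A gene of the wider list is not reported here and is left out of its counts. The members and lists were chosen with earlier results of these data known.

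The alternatives were the methods' t-test, the threshold of the paper's text (unadjusted p under 0.01 and 1.5-fold), array weights, a robust prior with a trend, a fit restricted to the groups compared, a minimum intensity of 100 or none, median centring, repeated quantile normalization, averaging over the probe sets of a gene, a block for the replicate number, and leaving out each mouse.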

Additional observations from a re-analysis of the deposited data

Results flagged for a closer look

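Groups of 4 mice were screened for a mouse whose distance from its nearest neighbour took up most of the range of its group, for the 10 members, the 15 other calcium genes named and the 4 ratios. Of 58 groups, 4 met this rule, and chance alone flags about 1 in 20. *Ryr1* measured 12.35 log2 in treated mouse 1, where the other 3 treated mice shared the value 12.22. *Jph1* measured 10.55 log2 in treated mouse 2, against 10.93 to 11 in the others. *Stac3* measured 9.11 log2 in *mdx* mouse 3, where the others shared 9.41. The *Atp2a2* to *Atp2a1* log2 ratio was -3.91 in *mdx* mouse 3, against -4.17 to -4.15 in the others, and with or without this mouse *Atp2a2* was called in *mdx* against C57.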

How the results depend on the processing

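*Atp2a2* was called against C57 in both dystrophic groups under all 22 alternatives, with an adjusted p of at most 0.0193 in limma or the methods' t-test, and its restoration stayed between -9.58% and 0.21%.

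The count of members called in *mdx* against C57 was 3 with array weights (*Ryr1* and *Stim1* added) and 2 with no minimum intensity (*Sln* added), against 1. In treated against *mdx* mice it was 1 with array weights (*Jph1*) and 0 to 1 with a mouse left out. In treated against C57 mice it was 2 with array weights and 2 with no minimum intensity. Of the other calcium genes, the methods' t-test called 1, 0 and 8 in *mdx* against C57, treated against *mdx* and treated against C57, the threshold of the paper's text called 2, 0 and 3, and array weights called 13, 16 and 28. A fit of only the groups compared called 1 in treated against *mdx* mice, where 5.04% of all probe sets were called. With a mouse left out the counts were 2 to 6, 0 to 16 and 7 to 26. The shares of all probe sets called were then 6.94% to 15.2%, 2.04% to 28.4% and 13.1% to 34.1%.

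Replicate numbers are shared between groups, and the labels do not say whether same-numbered mice are paired. Correlations between the deviations of same-numbered mice from their group means were -0.30 to 0.15. With 3 or 4 mice per group these values cannot decide whether the mice were paired. With the replicate number as a block, 2, 0 and 9 other calcium genes were called and the members called did not change in number. That fit called 7.90%, 3.44% and 16.1% of all probe sets.

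Differences that turned in sign were small and not called. In *mdx* against C57 these were *Calm2* (0.023, mean of probe sets) and *Micu3* (-0.044, array weights). In treated against *mdx* mice they were *Atp2a1* (0.0075) and *Casq2* (-0.043) with repeated quantile normalization, *Stim1* (-0.062) with array weights, and *Stac3* (0.058 with array weights, 0.033 with repeated quantile normalization). In treated against C57 mice they were *Ryr1* (0.049) and *Atp2a1* (3.79e-04) with repeated quantile normalization, *Casq1* (-0.0425) with median centring, *Jph1* (-0.022, mean of probe sets) and *Jph2* (-0.036 with array weights, -0.026 with median centring, -0.0071 with the replicate block). The *Jph2* to *Jph1* ratio turned to 0.032 with the mean of probe sets in treated against C57 mice and ran from -0.30 to 0.12 with a mouse left out, and the *Casq2* to *Casq1* ratio ran from -0.071 to 0.30 in treated against *mdx* mice. With a mouse left out, small differences turned in treated against *mdx* mice for *Atp2a1* (-0.023 to 0.0067), *Atp2a2* (-0.0017 to 0.068), *Casq2* (-0.18 to 0.18), *Jph2* (-0.23 to 0.058), *Stim1* (-0.028 to 0.0725) and *Stac3* (-0.095 to 0.015). They turned in *mdx* against C57 for *Atp2a1* (-0.017 to 0.013), *Calm2* (-0.043 to 0.02) and *Micu3* (-0.07 to 0.18), and in treated against C57 mice for *Ryr1* (-0.0825 to 0.0225), *Casq1* (-0.0075 to 0.0225) and *Jph2* (-0.12 to 0.17). The cause of these changes was not tested.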
